A study of Homo sapiens with 2 samples.

Results

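The synaptotagmin-like proteins (SYTL1 to SYTL5), the small GTPases RAB27A and RAB27B and 3 further factors of the same secretory step (RAB3D, MLPH and UNC13D) were followed in LNCaP cells, an androgen-responsive line from a human prostate carcinoma. The 10 genes, of 17689 measured by name, were read by 24 probe sets that the platform annotation assigned to 1 gene alone. One culture had been given lentivirus encoding a short hairpin RNA against KDM4A, a demethylase of lysines on histone H3, and the other had been given lentivirus from the pLKO.1 vector without a hairpin. RNA was taken at day 3 after infection in each and hybridised to Affymetrix Human Genome U133 Plus 2.0 arrays. The labels name 1 hairpin construct and 1 line, and there was 1 array for KDM4A knockdown and 1 for control. Nothing below therefore has a replicate check, no test was possible, and precision is limited by having 2 arrays. The genes were selected on their knockdown minus control differences in these same data, so the values are a description and support nothing beyond themselves.

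RAB27 proteins sit on secretory granules, melanosomes, lytic granules and multivesicular bodies and, when bound to GTP, recruit effectors that move the organelle to the plasma membrane and hold it there. Each SYTL protein carries a RAB27-binding domain at its amino terminus and tandem C2 domains, which bind membrane lipids, at its carboxy terminus. In secretory epithelia, prostate included, this machinery takes part in the release of stored proteins.

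Each value is taken to be on the log2 scale. The deposited values are centred, so that a probe set's value on an array is read as its signal minus the mean of the 2 arrays, and the values of the arrays mirror each other. A difference is the KDM4A knockdown value minus the control value, and a gene's difference is the mean over its probe sets, with the SD between those probe sets where there are 2 or more. Centring removes the signal level, so a difference near 0 cannot be told apart from a gene that is not expressed, and the labelled cell type could not be checked by the presence of its markers. KDM4A itself had values of -0.45 and -0.73 in KDM4A knockdown, against 0.45 and 0.73 in control, for its 2 probe sets, a difference of -1.18 ± 0.40 (SD, 2 probe sets) in the direction of the label. The difference of the median gene was 0.020, and the quartiles over all genes were -0.14 and 0.18.

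SYTL2 was 5.76-fold higher in KDM4A knockdown than in control and RAB27B 2.84-fold higher. In RNA from a whole culture, more cells of a kind and more RNA per cell cannot be told apart. SYTL2 and RAB27B were the only 2 of the 10 genes to differ by 2-fold or more, and 0 were lower by that much. The share of all genes past the same limit was 1.16% upward and 1.44% downward, and nothing is read from the comparison, since the same differences chose the members. A 3-fold limit kept SYTL2 alone, beside 0.254% of all genes upward and 0.458% downward. A 1.5-fold limit gave SYTL2 and RAB27B again, beside 4.3% of all genes upward and 4.38% downward. The other 8 genes lay between -0.20 and 0.15, and 7 of them lay inside the quartiles of all genes. In all, 6 genes lay above 0 and 4 below it, with a median of 0.037. Of the genes past the 2-fold limit RAB27B was the nearer to it, at a difference of 1.51, and of those short of it RAB27A was the nearest by size, at -0.20, so no gene lay close to the limit.

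**Figure D1:**
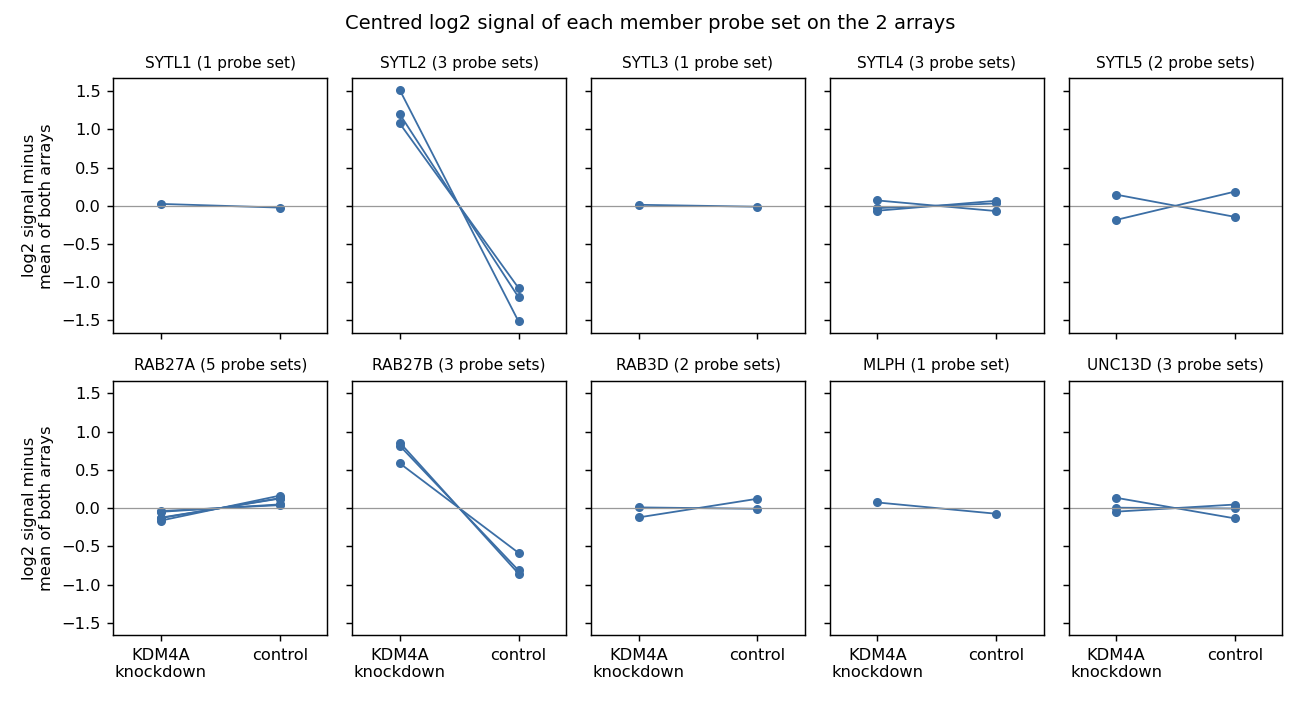
Centred log2 signal of each of the 24 probe sets (points) in KDM4A knockdown and in control, joined by a line for each probe set, with a panel for each gene. The lines of SYTL2 and RAB27B run steeply down toward control, and those of the other 8 genes stay close to 0.

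SYTL2, also called Slp2-a, anchors RAB27-bearing organelles to the plasma membrane, as in melanosome transport and in secretion at the apical face of epithelial cells. Its probe set 220613_s_at read 1.51 in KDM4A knockdown and -1.51 in control. Probe set 232914_s_at read 1.20 in KDM4A knockdown and -1.20 in control, and 225496_s_at read 1.08 in KDM4A knockdown and -1.08 in control. All 3 were thus high in KDM4A knockdown and low in control, and they gave differences of 3.03, 2.40 and 2.15. The mean of 2.53 ± 0.45 (SD, 3 probe sets) was exceeded by 6 of 17689 genes. The spread between its probe sets was wider than the median SD of 0.18 over the 8944 genes read by more than 1 probe set. RefSeq lists 47 coding transcripts for SYTL2, against 13 or fewer for each other SYTL gene, and all 3 probe sets have names ending in _s_at, which Affymetrix gives to probe sets that match several transcripts. Which transcripts each reads was not analysed here.

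The other 4 SYTL genes had a mean difference of 0.0040, which is 2.52 below SYTL2 on the log2 scale. SYTL1 (JFC1), a RAB27 effector of granule secretion, read 0.024 in KDM4A knockdown and -0.024 in control on its only probe set, a difference of 0.048. SYTL3, which links RAB27A on lytic granules to a kinesin motor in T cells, read 0.013 in KDM4A knockdown and -0.013 in control, a difference of 0.025, also from 1 probe set. Neither of these genes stood away from 0.

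SYTL4, known as granuphilin, docks insulin granules in pancreatic beta cells. Its 3 probe sets read 0.069, -0.065 and -0.031 in KDM4A knockdown and -0.069, 0.065 and 0.031 in control, and its mean difference was -0.017 ± 0.14 (SD, 3 probe sets). The probe sets thus lay on either side of 0. SYTL5, another RAB27-binding member of the family, had probe sets at -0.19 and 0.15 in KDM4A knockdown and at 0.19 and -0.15 in control. They pointed in opposite directions, with differences of -0.37 and 0.29, and the mean of -0.040 ± 0.47 (SD, 2 probe sets) gives no settled direction.

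The close relatives RAB27A and RAB27B went apart. RAB27A, the GTPase lost in Griscelli syndrome, is needed for melanosome transport and lytic granule release. Its 5 probe sets read -0.048, -0.13, -0.039, -0.12 and -0.16 in KDM4A knockdown and 0.048, 0.13, 0.039, 0.12 and 0.16 in control. All lay slightly low in KDM4A knockdown, and the mean difference was -0.20 ± 0.11 (SD, 5 probe sets), a 1.15-fold lower value that 3367 of 17689 genes undercut. RAB27B, which acts in granule and exosome release, had a probe set 228708_at at 0.86 in KDM4A knockdown and -0.86 in control. Probe set 207018_s_at read 0.82 in KDM4A knockdown and -0.82 in control, and 207017_at read 0.59 in KDM4A knockdown and -0.59 in control. All 3 were high in KDM4A knockdown. Their differences were 1.72, 1.63 and 1.17, with a mean of 1.51 ± 0.29 (SD, 3 probe sets) that 56 genes exceeded. RAB27B lay 1.71 above RAB27A and 1.02 below SYTL2 on the log2 scale.

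The 6 probe sets of SYTL2 and RAB27B ran from 1.17 to 3.03, and the 18 probe sets of the other genes from -0.37 to 0.29. SYTL2 and RAB27B were set apart by these same differences, so nothing is read from the gap, and probe sets of a gene are not replicates. Of all probe sets other than array controls, 1.36% differed by 2-fold or more upward and 2.38% downward. Among 2369 genes with 3 probe sets, 8 (0.34%) had all 3 at least 2-fold higher, SYTL2 and RAB27B among them. This share is description only, since the same differences chose the members.

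The RAB27 genes are shown by the sequence just before their annotated starts because these paralogs differed in direction. RefSeq gives RAB27B 2 start sites and RAB27A 5 in GRCh38.p14, and the windows below hold the 250 bases upstream of both RAB27B starts, of the most upstream RAB27A start, and of the RAB27A start 3, which holds a match. Capitals mark AGAACA or its reverse complement TGTTCT, the core of the element bound by the androgen and glucocorticoid receptors.
RAB27B start 1 (chr18:54717607-54717856, plus strand): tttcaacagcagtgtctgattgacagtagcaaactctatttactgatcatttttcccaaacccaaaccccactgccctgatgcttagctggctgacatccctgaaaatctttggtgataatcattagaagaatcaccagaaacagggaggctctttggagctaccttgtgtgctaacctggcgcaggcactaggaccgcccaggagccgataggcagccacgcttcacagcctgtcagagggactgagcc
RAB27B start 2 (chr18:54828227-54828476, plus strand): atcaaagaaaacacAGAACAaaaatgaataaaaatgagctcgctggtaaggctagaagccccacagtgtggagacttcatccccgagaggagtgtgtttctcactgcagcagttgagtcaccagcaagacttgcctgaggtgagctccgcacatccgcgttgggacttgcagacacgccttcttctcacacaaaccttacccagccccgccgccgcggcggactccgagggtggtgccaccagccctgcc
RAB27A start 1 (chr15:55319124-55319373, minus strand): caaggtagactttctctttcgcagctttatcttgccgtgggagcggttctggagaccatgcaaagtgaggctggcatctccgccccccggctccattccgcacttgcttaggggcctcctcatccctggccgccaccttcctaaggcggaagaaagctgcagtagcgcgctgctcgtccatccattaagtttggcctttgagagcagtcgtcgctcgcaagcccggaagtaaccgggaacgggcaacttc
RAB27A start 3 (chr15:55270400-55270649, minus strand): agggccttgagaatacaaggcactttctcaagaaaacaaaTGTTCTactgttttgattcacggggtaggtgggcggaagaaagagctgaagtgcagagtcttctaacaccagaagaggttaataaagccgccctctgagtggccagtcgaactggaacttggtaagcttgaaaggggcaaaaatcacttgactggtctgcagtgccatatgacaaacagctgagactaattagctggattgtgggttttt
AGAACA on either strand was present before 1 of the 2 RAB27B starts and 1 of the 5 RAB27A starts. Both paralogs thus have a match. Among the members, AGAACA was in 3 of 17 windows from the 8 genes that matched the promoter table. SYTL2 and UNC13D had no entry there, so no window of SYTL2 could be shown and the motif counts leave both genes out. Over 35116 windows of the same length 12.4% held AGAACA on either strand. The E-box CACGTG was in 1 of the 17 windows, that of the second MLPH start, against 6.34% of all windows. CATGTG or its reverse complement CACATG was in 0 of 17, against 9.42%. The motifs do not overlap one another in these windows, and a match describes letters only. The GC content was 50.4% and 56.0% for the RAB27B windows and 58.8% and 45.6% for the RAB27A windows shown, beside a median of 58.0% over all windows.

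**Figure D2:**
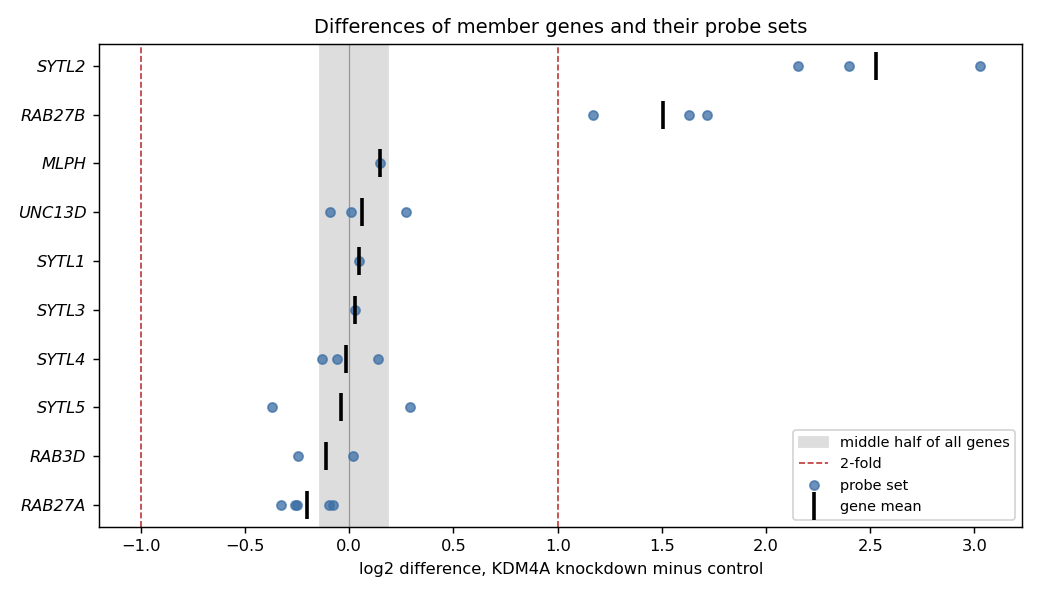
Log2 difference, KDM4A knockdown minus control, of each probe set (blue points) and gene mean (black bars) for the 10 genes, ordered by the mean. The grey band spans the quartiles of all genes and the dashed lines mark 2-fold. All probe sets of SYTL2 and RAB27B lie beyond the right dashed line, and no other probe set reaches either line.

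The remaining effectors and partners lay near 0. MLPH (melanophilin) bridges RAB27A to the motor myosin Va, and its only probe set read 0.074 in KDM4A knockdown and -0.074 in control, a difference of 0.15. UNC13D (Munc13-4) primes lytic and secretory granules for fusion and is a RAB27 effector. Its 3 probe sets read 0.13, -0.047 and 0.0052 in KDM4A knockdown and -0.13, 0.047 and -0.0052 in control, for a mean difference of 0.062 ± 0.19 (SD, 3 probe sets). RAB3D, a GTPase of zymogen and other exocrine granules, had probe sets at -0.12 and 0.0091 in KDM4A knockdown and at 0.12 and -0.0091 in control, and its mean difference was -0.11 ± 0.19 (SD, 2 probe sets). For UNC13D and RAB3D the probe sets did not share a direction.

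The neighbours of the members along the chromosomes were then read, a step taken after the differences had been seen. In RefSeq order, the next measured gene after SYTL2 on chromosome 11 is CCDC83, a gene for a coiled-coil protein. Its 1 probe set read 1.65 in KDM4A knockdown and -1.65 in control, a difference of 3.29, which ranked 1 of 17689 genes. CREBZF on the other side of SYTL2 lay at -0.15 ± 0.28 (SD, 6 probe sets), and PICALM, a clathrin assembly protein beyond CCDC83, lay at 0.13 ± 0.26 (SD, 5 probe sets). High values were thus limited to SYTL2 and CCDC83 among these 11 genes, since the other 9 lay between -0.20 and 0.47. Of 17634 pairs of adjacent measured genes, 8 had both members at least 2-fold higher. SYTL2 with CCDC83 was the only pair with both at least 4-fold higher, a limit used nowhere else here. At the 3-fold limit ACTA2 with FAS, at 2.14 and 1.89, passed as well. Nothing is read from these counts, since SYTL2 was chosen for its difference. CCDC83 had the highest value of all and is the next measured gene after SYTL2. The 250 bases before its start in the RefSeq promoter table are therefore given here.
CCDC83 start (chr11:85855133-85855382, plus strand, GRCh38.p14, RefSeq): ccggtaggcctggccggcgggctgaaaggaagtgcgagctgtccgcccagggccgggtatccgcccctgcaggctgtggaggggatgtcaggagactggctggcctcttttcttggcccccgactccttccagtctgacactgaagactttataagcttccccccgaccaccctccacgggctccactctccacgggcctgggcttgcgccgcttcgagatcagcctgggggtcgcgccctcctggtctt
Its GC content was 66.4%, and none of the 3 motifs above was found in it.

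RAB27B had no such neighbour. The 10 nearest measured genes lay between -0.87 and 0.23, with C18orf54 at -0.87 ± 0.55 (SD, 2 probe sets) and the transcription factor gene TCF4 at 0.23 ± 0.28 (SD, 7 probe sets). SYTL5, itself near 0, lay next but one to SRPX among the measured genes of chromosome X. SRPX is a gene for a sushi-repeat protein. SRPX read 1.10 in KDM4A knockdown and -1.10 in control on 1 probe set, a difference of 2.20 that ranked 10 of 17689. Around each of the 7 other members and their 10 neighbours, 0 neighbours reached 2-fold in either direction.

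**Figure D3:**
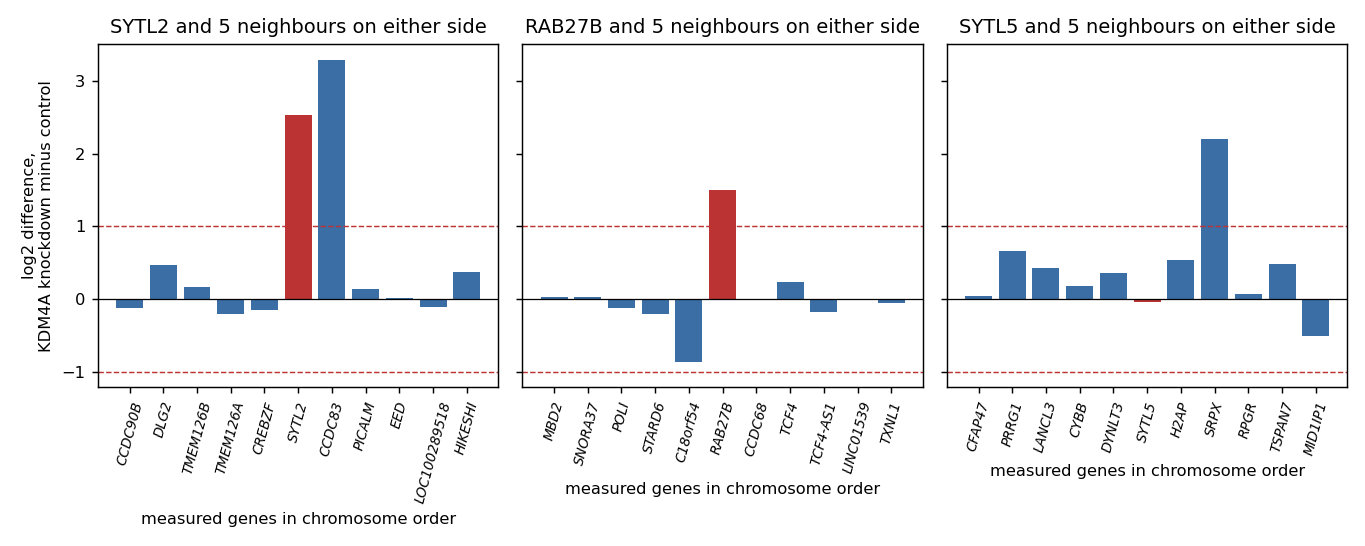
Log2 difference, KDM4A knockdown minus control, of SYTL2, RAB27B and SYTL5 (red bars) and of the 5 nearest measured genes on either side (blue bars) in chromosome order. Dashed lines mark 2-fold. CCDC83 at 3.29 stands beside SYTL2 at 2.53, SRPX at 2.20 stands near SYTL5, and RAB27B at 1.51 stands alone.

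The rest of the secretory pathway was described with 10 lists, which held 119 measured genes. Of these, 74 (62.2%) lay above 0 and 45 below it, with a median of 0.041. Over all genes 53.7% lay above 0 and the median was 0.020, and the counts above 0 in each list below stand beside that share. At least 2-fold higher were 2 genes (1.68%) and at least 2-fold lower was 1 (0.84%), shares set beside the 1.16% and 1.44% of all genes. The 2 were RAB8B and TYRP1, and the 1 was EXOC5.

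Among regulators of RAB27, 6 of 8 measured genes lay above 0 and 0 reached 2-fold. The median of 0.10 was 0.014 without probe sets ending in _x_at or _s_at. MADD, the exchange factor that loads RAB3 and RAB27 with GTP, lay at 0.52 ± 0.19 (SD, 2 probe sets). CHML, an escort protein that presents RABs for prenylation, lay at -0.66 ± 0.35 (SD, 3 probe sets), all of its probe sets below 0. TBC1D10B, a GTPase-activating protein, lay at 0.24. This list also held WWC1, a Hippo pathway scaffold, at 0.12 ± 0.46 (SD, 8 probe sets).

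In a list of RAB27 effectors outside the SYTL family and their myosins, 7 of 8 genes lay below 0, and 0 reached 2-fold. The list left out MLPH and UNC13D, member effectors that lay above 0, at 0.15 and 0.062. Of the 7 below 0, MYO5C at -0.0054 and RPH3AL at -0.033 ± 0.39 (SD, 3 probe sets) were close to 0. EXPH5 lay at -0.11 ± 0.44 (SD, 3 probe sets). Its probe sets ran from -0.62 to 0.14 and those of RPH3AL from -0.46 to 0.30, so neither gene had a settled direction. The list median of -0.11 was -0.060 with medians over probe sets. MYO5A, the motor that MLPH recruits, lay at -0.66 ± 0.80 (SD, 3 probe sets). Its probe sets read -0.79, -0.17 and -0.040 in KDM4A knockdown and 0.79, 0.17 and 0.040 in control, so its mean rests mostly on 1 of them. RPH3A (rabphilin), an effector of RAB3 and RAB27, lay at -0.57, and MYRIP, which links RAB27A to myosin VIIa, at 0.42, each with 1 probe set.

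In the list of RAB3 and other secretory RABs, 9 of 13 genes lay above 0, and the median of 0.11 was 0.21 with medians over probe sets. That list median was 0.079 with probe sets of several genes included and 0.096 without probe sets ending in _x_at or _s_at. RAB8B, a GTPase of transport from the Golgi to the plasma membrane, read 0.47, 0.55 and 0.50 in KDM4A knockdown and -0.47, -0.55 and -0.50 in control. Its difference of 1.01 ± 0.078 (SD, 3 probe sets) stood at the 2-fold limit. RAB37, a GTPase of secretory granules, lay at 0.91 on 1 probe set, and RAB3GAP1, a subunit of the RAB3 GTPase-activating complex, at -0.48 ± 0.44 (SD, 4 probe sets).

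The exocyst, the complex that tethers secretory vesicles at the plasma membrane, held the largest lower difference of the 10 lists. EXOC5 (SEC10) had 4 probe sets at -1.26, -1.26, -1.35 and -1.42 in KDM4A knockdown and at 1.26, 1.26, 1.35 and 1.42 in control. All 4 were low in KDM4A knockdown, and the difference of -2.64 ± 0.15 (SD, 4 probe sets), 6.24-fold lower, ranked 16 from the lowest of 17689 genes. EXOC2 (SEC5), a subunit bound by the GTPase RALA, went the other way, at 0.82 ± 0.050 (SD, 2 probe sets). EXOC7 lay at 0.20 ± 0.18 (SD, 5 probe sets). The list as a whole had 6 of 9 genes above 0 and a median of 0.023, so EXOC5 stood apart from the other subunits.

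Of 17 SNAREs and SM proteins, which carry out membrane fusion, 14 lay above 0 and 0 reached 2-fold. The median of 0.19 was 0.048 without probe sets ending in _x_at or _s_at. VAMP3, a vesicle SNARE, lay at 0.69 ± 0.075 (SD, 3 probe sets), STXBP5 (tomosyn), which restrains SNARE assembly, at 0.52 ± 0.062 (SD, 3 probe sets), and STX2, a plasma membrane SNARE, at 0.36 ± 0.061 (SD, 2 probe sets). Relatives of UNC13D and other priming factors were split, with 5 of 10 above 0 and a median of 0.0075. DOC2A lay at 0.28, UNC13B at -0.26 and RIMS1 at 0.22 ± 0.032 (SD, 2 probe sets).

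The synaptotagmins share tandem C2 domains with the SYTL proteins but are anchored in the membrane. Of 14 measured, 10 lay above 0 (median 0.083) and 0 reached 2-fold. SYT11 lay at 0.55 ± 0.42 (SD, 3 probe sets), SYT4 at -0.43 on 1 probe set, and SYT7, a calcium sensor of lysosome and granule exocytosis, at 0.35 ± 0.21 (SD, 4 probe sets). Genes of exosomes and multivesicular bodies had 6 of 12 above 0 (median 0.013), with VPS4A at -0.42, its paralog VPS4B at 0.36 and CD63, a tetraspanin of RAB27-bearing bodies, at 0.31.

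Proteins that the prostate epithelium secretes or displays showed no common direction, with 4 of 9 above 0 and a median of -0.082, which was -0.026 with medians over probe sets. MSMB, a major protein of seminal fluid, read 0.52 and 0.46 in KDM4A knockdown and -0.52 and -0.46 in control, a difference of 0.99 ± 0.084 (SD, 2 probe sets). TMPRSS2, a surface protease, lay at -0.76 ± 0.16 (SD, 4 probe sets) and AZGP1, a secreted zinc-binding glycoprotein, at -0.75 on 1 probe set. Of the 20 melanosome genes listed 19 were measured, with 13 above 0 and a median of 0.069. TYRP1, an enzyme of melanin synthesis, read 1.38 in KDM4A knockdown and -1.38 in control on 1 probe set, a difference of 2.77. BLOC1S2 lay at 0.58 and SLC45A2 at 0.48 ± 0.013 (SD, 2 probe sets).

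**Figure D4:**
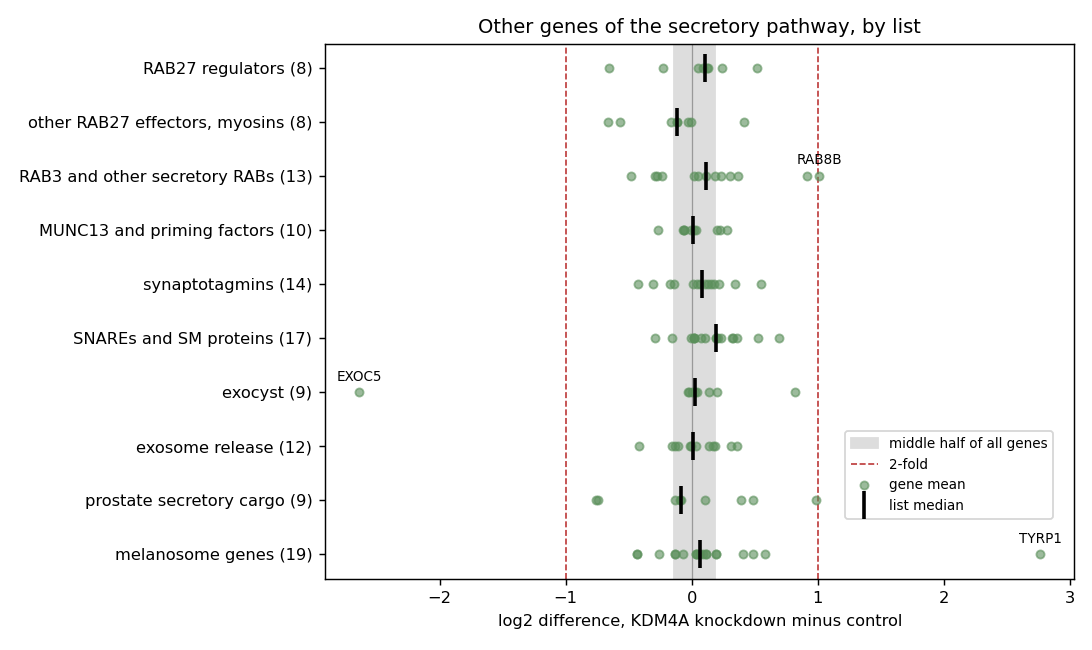
Log2 difference, KDM4A knockdown minus control, of each measured gene (green points) in the 10 lists, with the number measured in brackets and the list median as a black bar. The grey band spans the quartiles of all genes and the dashed lines mark 2-fold. EXOC5 at -2.64, RAB8B at 1.01 and TYRP1 at 2.77 are the named points beyond a dashed line.

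Markers of cell types that use RAB27 or that could be present in the culture were read beside SYTL2 and RAB27B. Melanocyte markers had 4 of 5 above 0, from -0.36 (MITF) to 0.11 (TYR), with PMEL at 0.069. That list did not hold the pigment genes TYRP1, at 2.77, and SLC45A2, at 0.48, which stood in the melanosome list above. Markers of cytotoxic and other leukocytes had 5 of 7 above 0, with CD3D at 0.24, NKG7 at -0.14 and GZMB at 0.053. Neuroendocrine markers had 3 of 4 above 0, with ENO2 at 0.54, NCAM1 at 0.16 ± 0.22 (SD, 6 probe sets) and CHGA at 0.061. In these 3 lists as drawn up 0 genes reached 2-fold, but TYRP1, a gene of pigment cells, did, and the part of such cells in the result was not tested.

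Basal epithelial markers had 3 of 5 above 0, with KRT14 at 0.41, ITGA6 at -0.22 ± 0.37 (SD, 2 probe sets) and KRT5 at -0.22. Markers of the kidney line used to package virus had 3 of 5 above 0, with NEFL at 0.49 ± 0.22 (SD, 3 probe sets), PAX2 at -0.34 ± 0.26 (SD, 2 probe sets) and LHX1 at 0.028. Luminal prostate markers had 6 of 8 above 0 (median 0.11), with FOLH1 at 0.48, KRT8 at 0.41 and FOXA1 at -1.16 ± 1.75 (SD, 2 probe sets), whose probe sets lay at -2.39 and 0.079.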

How the data were processed

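RNA from 1 KDM4A knockdown culture and 1 control culture of LNCaP cells had been hybridised to Affymetrix arrays. The authors deposited values for 44672 probe sets, and the submitters' processing notes name RMA without a version. In every row the 2 values summed to 0 within 1e-06, so the deposited log2 values are centred on the mean of the arrays. No source used here gives the centring step, the log base or any filter. Base 2 was assumed because RMA works on it, and every fold rests on that.

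The 42 control probe sets were set aside. Of the rest, 34880 had 1 gene in the platform annotation, 1619 had several and 8131 were unnamed here. Symbols were updated by Entrez identifier through RefSeq genes of GRCh38.p14, which matched 34839. Values of 2-fold or more were counted as a rule of size, not a test, and the calculation was checked on simulated differences. Named genes were the 10 members, KDM4A and the 3 genes farthest from 0 in each of 16 lists. MYO5C, RPH3AL, EXPH5, C18orf54, the neighbours of members, the motifs and further genes were named after their values were seen. The members and lists were chosen with earlier results of these data known. Alternatives changed the probe sets used, their summary, the centring and the size rule. Python 3.11.15, numpy 2.4.6, pandas 2.3.3 and matplotlib 3.10.9 were used.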

Additional observations from a re-analysis of the deposited data

How the results depend on the processing

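Without the probe sets whose names end in _x_at or _s_at, 7 of the 10 genes were still measured. SYTL2, RAB27A and MLPH then had no value, so the count of members at least 2-fold higher was 1, and RAB27B lay at 1.44. SYTL4 lay at 0.14 on its 1 remaining probe set. At a 3-fold size rule 1 member, SYTL2, was counted as higher. At 1.5-fold 2 were counted, and 0 members were lower under any of the 6 alternatives. With medians over probe sets SYTL2 lay at 2.40 and RAB27B at 1.63, and no probe set naming a member also named another gene. In the 10 pathway lists the count of higher genes was 1 with medians, 1 after subtracting the median of all probe sets, 1 at 3-fold and 6 at 1.5-fold, and that of lower genes was 5 at 1.5-fold. The list medians for exosome release and for priming factors turned to -0.0011 and -0.0068 after that subtraction. Without probe sets ending in _x_at or _s_at the medians for prostate cargo, melanosome, exosome and priming genes were -0.13, 0.12, 0.044 and 0.022. No paired analysis was possible because each group had 1 array, which also left no replicate to omit. Signal over background is lost by centring.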

Other observations

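Besides MSMB, 3 further secretory products of luminal prostate cells, KLK3, ACP3 and KLK2, lay short of 2-fold. KLK3, which encodes prostate-specific antigen, had 3 probe sets at 0.086, 0.093 and -0.017 in KDM4A knockdown and at -0.086, -0.093 and 0.017 in control, a difference of 0.11 ± 0.12 (SD, 3 probe sets). ACP3, prostatic acid phosphatase, lay at -0.096 ± 0.38 (SD, 3 probe sets), with probe sets from -0.51 to 0.24. KLK2 lay at 0.39 ± 0.61 (SD, 4 probe sets), and 1 of its probe sets, at 1.30, stood away from the other 3, which lay between -0.014 and 0.20. These genes were chosen after their values were seen.

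The other 7 adjacent pairs with both genes at least 2-fold higher were GBP1 with GBP2, ACTA2 with FAS, GLYATL2 with GLYATL1, PTPRR with TSPAN8, CRIP2 with CRIP1, NLGN1 with NAALADL2, and TAP1 with PSMB9. The lower value of each of these pairs was at most 1.89, that of FAS, against 2.53 for SYTL2 in its pair with CCDC83.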
